A study of Arabidopsis thaliana with 15 samples.

Results

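The 7 transcripts described here were AT1G72760, AT4G35710, AT1G80870, CES101 (AT3G16030), HT1 (AT1G62400), AT3G06620 and AT3G46920. They were chosen by their signal, as kinases higher in pollen tubes grown through a pistil than in tubes grown on medium for 4 h, and each was read by 1 of the 22746 probe sets analysed. The names were checked against the annotation, and 6 of the 7 were annotated as protein kinases. AT4G35710 was not, since the study's gene annotation describes its product as a protein of unknown function with a DUF241 domain, and it is called a DUF241 transcript below. The signals in pistil-grown tubes and in 4 h tubes made the choice. Every level or difference taken from those arrays is therefore given for the 7 as a description with no test.

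Signals came from 15 Affymetrix ATH1 arrays hybridised with RNA from Columbia (Col-0) Arabidopsis thaliana pollen. Dry pollen, ungerminated grains, was on 4 arrays. Pollen grown on medium for 0.5 h (0.5 h PT) and for 4 h (4 h PT) was on 4 arrays each. Semi in vivo tubes (SIV PT), on 3 arrays, came from Col-0 pollen placed on ms1 pistils of the Landsberg background, whose own anthers make no working pollen. Per the labels these tubes spent 3 h in the cut pistil and 5 h on solid medium below its cut end, while the study's methods give a shorter time on the medium. Bundles of emerged tubes from many pistils were pooled for each SIV PT array, and no condition other than SIV PT passed through female tissue. The labelling reaction started from 5 µg of RNA for the conditions without a pistil and from 2 µg for SIV PT. By the study's methods the tubes without a pistil grew in liquid medium, and the 4 h samples kept grains that had not germinated. The SIV PT tubes were cut away from solid medium. RNA input, growth time, type of medium, ungerminated grains and growth through a pistil therefore cannot be told apart. The labels call the replicates biological without saying which plants they came from, and p-values measure the spread between these arrays.

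Protein kinases pass signals on by adding phosphate to other proteins. Receptor kinases span the plasma membrane with a sensor outside and a kinase domain inside, and several of them on the pollen tube read peptides of the pistil and keep the tube wall intact. Raf-like kinases resemble the first tier of a mitogen-activated protein kinase cascade and act inside the cell. A growing tube needs such relays to follow the style towards an ovule.

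The receptor-type kinases come first. CES101 encodes an S-domain receptor kinase, of the group with a lectin-like sensor, and is named for callus expression of the small subunit of Rubisco. Its signal was 862, 894 and 354 on the SIV PT arrays. It was 8.48, 82.3, 36.9 and 51.6 on the 4 h PT arrays, 109, 60.4, 10.3 and 97.2 on the 0.5 h PT arrays and 88.5, 29.1, 44.6 and 3.01 on the dry pollen arrays. The 3 SIV PT arrays lay above all 12 others, as they did for each of the 7 transcripts and for 11.9% of all probe sets, and the 12 others overlapped between their conditions. The mean was 703 ± 303 (SD, n = 3) in SIV PT against 44.8 ± 30.7 (SD, n = 4) in 4 h PT, a ratio of 15.7. SIV PT replicate 3 was far below the other two. The suffix of this probe set marks probes shared by more than 1 transcript, so a near-identical gene may contribute to the CES101 signal.

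AT1G80870 encodes a receptor-like serine/threonine kinase. Its signal was 2472, 2009 and 1068 on the SIV PT arrays. It was 184, 130.4, 103 and 95.5 in 4 h PT, 200.4, 132, 191 and 177 in 0.5 h PT and 106, 147, 163 and 141 in dry pollen. The conditions without a pistil overlapped, and the lowest SIV PT array was 5.33 times the highest array of any other condition. The means were 1849 ± 715 (SD, n = 3) in SIV PT and 128 ± 40.0 (SD, n = 4) in 4 h PT.

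AT1G72760 encodes a kinase of the group that joins a kinase domain to a universal stress protein (USP) domain and, in many members, to a U-box, the part that ubiquitin ligases use to tag proteins. It had the highest ratio of the 7. Its signal was 5231, 5722 and 3516 on the SIV PT arrays. It was 252, 242, 77.5 and 223 in 4 h PT, 74.8, 91.3, 92.4 and 145 in 0.5 h PT and 154, 69.8, 38.6 and 41.2 in dry pollen. In 4 h PT, 3 of the 4 arrays lay above every array of the earlier conditions, and replicate 3 lay among them. The mean was 4823 ± 1158 (SD, n = 3) in SIV PT, 199 ± 81.7 (SD, n = 4) in 4 h PT and 75.8 ± 53.9 (SD, n = 4) in dry pollen. The SIV PT mean was 24.3 times that of 4 h PT and 63.6 times that of dry pollen.

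The Raf-like kinases gave 3 of the 7 transcripts, with unlike courses. HT1, HIGH LEAF TEMPERATURE 1, encodes a kinase known for the closing and opening of stomata in response to carbon dioxide. Its signal was 557, 438 and 277 on the SIV PT arrays. It was 24.7, 16.5, 17.2 and 37.0 in 4 h PT, 12.3, 13.8, 8.69 and 15.9 in 0.5 h PT and 30.4, 27.8, 22.9 and 14.9 in dry pollen. No array outside SIV PT exceeded 37.0, and the lowest SIV PT array was 7.49 times that value. The means were 424 ± 140 (SD, n = 3) in SIV PT and 23.9 ± 9.52 (SD, n = 4) in 4 h PT, a ratio of 17.8.

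AT3G06620 encodes a Raf-like kinase with a PAS domain, a fold that senses small ligands in other proteins. Its signal was 457, 416 and 319 on the SIV PT arrays. It was 119, 139, 191 and 119 in 4 h PT, 266, 120.5, 200.1 and 175 in 0.5 h PT and 172, 244, 150.3 and 304 in dry pollen. Without a pistil 2 of the 12 arrays reached a signal of 256. The lowest SIV PT array stood 1.05 times above the highest dry pollen array, and the ratio of means was 2.80 against 4 h PT and 1.82 against dry pollen.

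AT3G46920 encodes a Raf-like kinase with a PB1 domain, which pairs proteins with each other. Its signal was 240.3, 266 and 601 on the SIV PT arrays. It was 127, 17.4, 26.4 and 182 in 4 h PT, 167, 13.9, 60.0 and 18.2 in 0.5 h PT and 86.3, 56.0, 14.9 and 43.7 in dry pollen. The spread within each condition was wide, with a coefficient of variation of 90.6% among the 4 h PT arrays and 54.5% among the SIV PT arrays. The ratio of means was 4.18 against 4 h PT, and the lowest SIV PT array was 1.32 times the highest of the other 12.

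The DUF241 transcript AT4G35710 has no role that could be stated here. Its signal was 1479, 1557 and 1969 on the SIV PT arrays. It was 38.5, 23.4, 163 and 140.0 in 4 h PT, 187, 22.3, 61.8 and 12.7 in 0.5 h PT and 42.1, 124.8, 135 and 149 in dry pollen. The SIV PT arrays agreed most closely among the 7 transcripts, with a coefficient of variation of 15.8%, and their mean was 18.3 times that of 4 h PT.

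**Figure D1:**
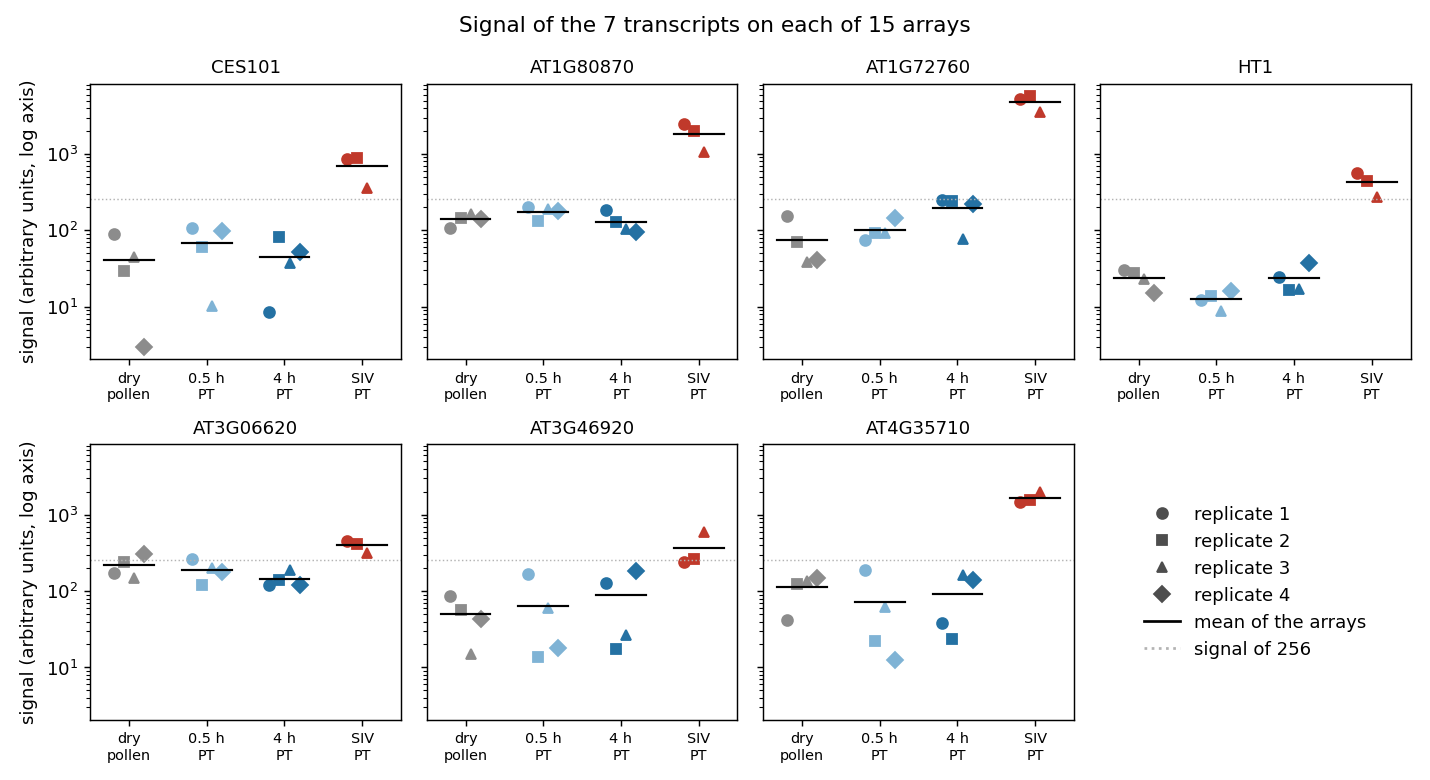
Signal (arbitrary units, log axis) of each transcript on the 15 arrays, with 1 point per array, a symbol per replicate number and a bar at the mean of each condition. In all 7 panels the 3 SIV PT arrays lie above the other 12, by 14.0 times for AT1G72760 and by only 1.05 times for AT3G06620 when the lowest SIV PT array is set against the highest of the others. Levels are to be read within a panel, since different probe sets bind differently.

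Without a pistil nearly all signals of the 7 transcripts lay below a limit that most probe sets did not reach either. Of the 22746 probe sets, 6696 had a mean log2 signal of at least 8 in 1 condition or more. A signal of 256 (a log2 value of 8) was reached on 0 of the 12 arrays outside SIV PT for 6 of them, and on 2 of the 12 for AT3G06620. On the SIV PT arrays it was reached on 3 of 3 for 6 transcripts and on 2 of 3 for AT3G46920. The study's methods describe detection calls made with GCOS, which were not used here, and whether the low values differ from background was not tested. In the order of condition means SIV PT was highest for all 7, and the other conditions followed in different orders. For HT1, 4 h PT and dry pollen had nearly equal means (23.9 and 24.0) and 0.5 h PT was lowest (12.7), each 4 h PT array lying above each 0.5 h PT array, as for 3.54% of all probe sets. For the other 6, neighbouring conditions below SIV PT overlapped in their arrays.

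Differences were fitted with limma on log2(signal + 64), a scale on which the change of a low signal is understated. From 4 h PT to SIV PT the fitted differences were 4.26 ± 0.32 (SE) for AT1G72760, 3.59 ± 0.41 for AT4G35710, 3.26 ± 0.25 for AT1G80870 and 2.77 ± 0.37 for CES101. They were 2.44 ± 0.19 for HT1, 1.57 ± 0.45 for AT3G46920 and 1.16 ± 0.24 for AT3G06620. The median over the 7 was 2.77, and over all 22746 probe sets it was -0.07. Ranked from the largest rise, AT1G72760 stood at place 23 and AT3G06620 at place 1711 of the 22746. A probe set was called changed at a log odds B above 3 and at least 3-fold, the limits the study's methods use, and 5 of the 7 passed for a rise, where 2.71% of all probe sets did. Nothing is read from that count, since the same contrast chose the 7. The other two were AT3G46920, at 2.97-fold on this scale, and AT3G06620, at 2.24-fold. CES101 did not pass without SIV PT replicate 1 or without SIV PT replicate 2.

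Against dry pollen the fitted differences in SIV PT ran from 0.73 ± 0.24 (SE) for AT3G06620 to 5.17 ± 0.32 for AT1G72760. SIV PT arrays serve in both contrasts, so these values are no second reading of the rise. From dry pollen to 4 h PT, 3 of the 7 were higher and 4 lower, with a median of -0.01. The largest difference there was 0.91 ± 0.29 for AT1G72760 and the lowest -0.43 ± 0.22 for AT3G06620.

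The means of 0.5 h PT and dry pollen use no array that chose the transcripts, and this comparison was tested. Its standard errors, intervals and p-values draw on the spread of all 15 arrays, which include those that made the choice. In a fit of only these 2 conditions 0 of the 7 were called. Signals were low, with dry pollen means from 24.0 for HT1 to 218 for AT3G06620. Because of the constant added before log2, a call needed more than a 3-fold change in signal. For HT1, CES101, AT3G46920, AT1G72760 and AT4G35710, with dry pollen means from 24.0 to 113, no fall could have reached the 3-fold limit. The count of calls therefore says little about a fall or a modest rise. In limma 0 of the 7 were called, 0 of 7 had an unadjusted p below 0.05 (6.05% over all probe sets), and adjusted p-values over all probe sets ran from 0.982 to 0.999. Over all probe sets 0.0615% were called in this comparison. The differences ran from -0.51 for AT4G35710 to 0.33 for CES101, and their 95% intervals from -1.32 to 1.06, so a change within the first 0.5 h that falls inside these intervals was not detectable. The narrowest interval, for HT1, was -0.57 to 0.18. It is narrow because HT1 signals there, 8.69 to 30.4, lay below the constant added before log2. That constant shrinks both the difference and its interval. The HT1 difference was -0.20, and -0.47 with 16 added to the signal instead. The HT1 mean was 24.0 in dry pollen and 12.7 in 0.5 h PT, so the interval does not bound the change in signal itself.

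**Figure D2:**
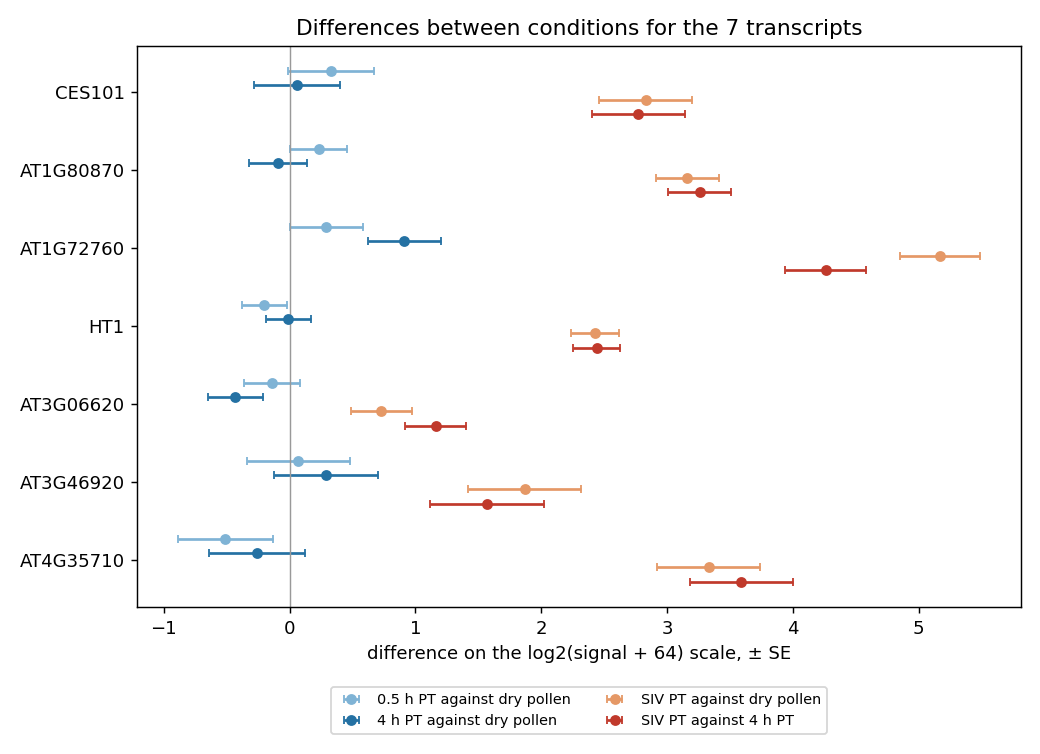
Fitted difference (log2(signal + 64) scale, x axis) with its standard error for each transcript in 4 comparisons. The differences of both in vitro conditions from dry pollen lie between -0.51 and 0.91, and both SIV PT comparisons lie between 0.73 and 5.17.

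Among the SIV PT arrays the transcripts fell into opposite patterns. Replicate 3 was the lowest array for AT1G72760, AT1G80870, CES101, HT1 and AT3G06620, by 0.38 to 1.17 on the log2(signal + 64) scale below the mean of the other two. It was the highest for AT4G35710 and AT3G46920, by 0.36 and 1.07. Of the 616 probe sets called higher after growth through a pistil, replicate 3 was the lowest for 344 (55.8%), with a median of -0.13. Over all 15 arrays the 21 pairs of transcripts had Pearson r from 0.57 to 0.97 (median 0.82), which the shared SIV PT level sets. Over the 12 arrays without SIV PT r ran from -0.66 to 0.54 (median 0.04). The signals there reached 256 only for AT3G06620, and this is a description of low values.

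The genes related to the 7 did not share one direction. Their lists held 106 probe sets with 1 named gene, the 7 themselves left out. They covered the families of the 7, the carbon dioxide pathway of HT1 and receptor kinases known from pollen tubes. From 4 h PT to SIV PT 5 were called higher and 8 lower, 4.72% and 7.55% of the 106. The pollen tube receptor kinases, a list outside these families, gave 1 of the higher and 3 of the lower calls. Over all probe sets 2.71% were called higher and 2.08% lower, and 31.0% had an unadjusted p below 0.05. From dry pollen to 0.5 h PT 0 of the 106 were called and 5 had an unadjusted p below 0.05 in limma, where 6.05% of all probe sets did.

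Of 18 probe sets from 17 other U-box and USP-domain kinase genes, the group of AT1G72760, 0 were called higher, 4 lower and 14 in neither direction between 4 h PT and SIV PT, with 11 at an unadjusted p below 0.05 and a list median of -0.57. AT3G20200 fell from 9113 ± 1865 (SD, n = 4) to 721 ± 139 (SD, n = 3), a difference of -3.53 ± 0.19 (SE, adjusted p = 7.98e-09). AT1G16760 fell by 2.45 (adjusted p = 4.06e-07). AT5G12000 and AT1G17540 fell by 1.76 and 1.75 from signals of 65179 and 40458, and both calls were lost under quantile normalization, at -0.82 and -1.06. AT1G17540 is the kinase to which the annotation likens AT1G72760. In the same group AT5G35380, named after its values were seen, had risen by 4 h: its signal of 114 ± 45.6 in dry pollen became 4682 ± 2922 after 4 h on medium (SD, n = 4 each), 4.60 ± 0.32 (SE, adjusted p = 7.04e-07), and stood at 10642 ± 2277 (SD, n = 3) in SIV PT.

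Of the 3 measured relatives of AT1G80870, AT4G25390, also a receptor-like kinase, was called higher in SIV PT. Its signal was 98.3 ± 109 (SD, n = 4) in 4 h PT and 906 ± 248 (SD, n = 3) in SIV PT, 2.76 ± 0.36 (SE, adjusted p = 3.23e-05). The call was lost without SIV PT replicate 2, with 16 in place of 64 added to the signal and with only the arrays of the 2 conditions in the fit. The remaining relatives, AT5G51770 and AT2G45590, had differences of -0.64 and -0.41 and were not called. Their condition means were low, from 13.4 to 143.

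**Figure D3:**
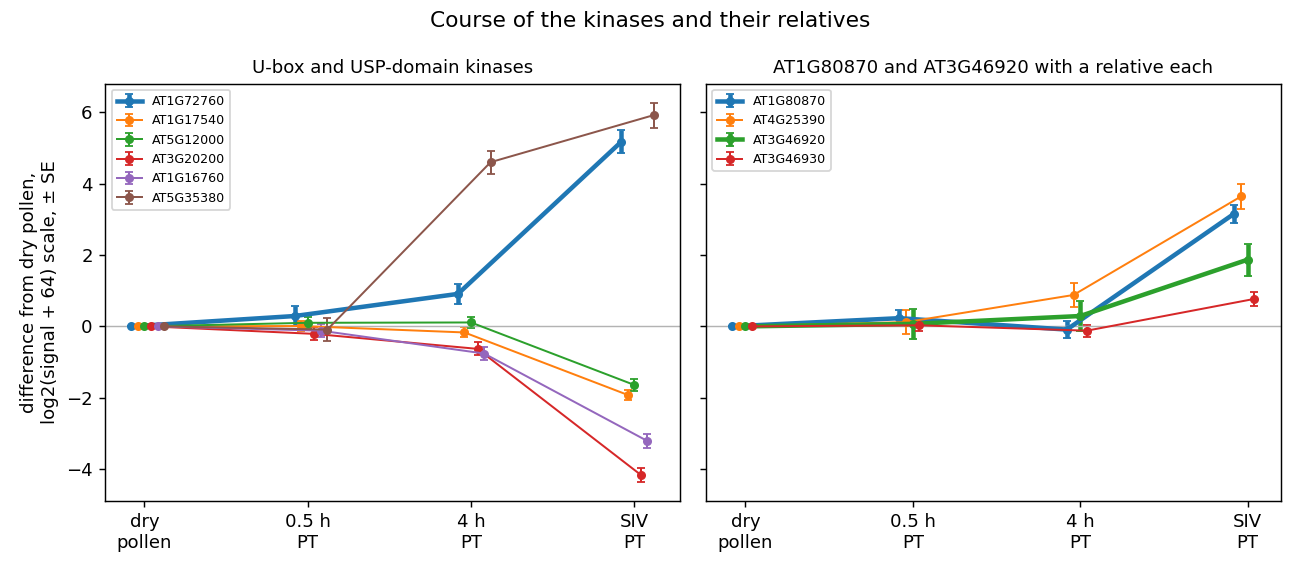
Fitted difference from dry pollen (log2(signal + 64) scale, y axis, with standard errors) by condition for AT1G72760 with 5 U-box and USP-domain kinases (left) and for AT1G80870 and AT3G46920 with a relative each (right). AT1G72760 reaches 5.17 in SIV PT while 4 of its relatives lie between -4.16 and -1.64, and AT5G35380 is already at 4.60 in 4 h PT.

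Among 35 other Raf-like kinases 3 were called higher and 1 lower, with a list median of 0.01 and 16 at an unadjusted p below 0.05. AT4G18950, of the integrin-linked type, rose from 1521 ± 425 (SD, n = 4) to 5629 ± 294 (SD, n = 3), 1.88 ± 0.22 (SE, adjusted p = 1.34e-05). Its signal was already higher in 4 h PT than in dry pollen (311 ± 69.9) and 0.5 h PT (408 ± 85, SD, n = 4 each). AT4G23050, a PAS-domain kinase like AT3G06620, rose by 2.40 (adjusted p = 1.46e-04), a call close to the limit that was kept in 10 of 24 alternatives. The other 4 PAS-domain kinases measured, AT3G06630 and AT3G06640 beside AT3G06620 on the chromosome among them, were not called, and the 5 together ran from 0.00 to 2.40. Of 4 PB1-domain kinases measured, AT5G57610 rose by 1.61 (adjusted p = 5.66e-06) and AT3G24715 fell by 2.19 (adjusted p = 4e-06). The call for AT5G57610 was kept in 18 of 24 alternatives and lost without 4 h PT replicate 1 or 4 or SIV PT replicate 3.

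AT3G46930, the Raf-like kinase gene next to AT3G46920, had a signal of 918 ± 154 (SD, n = 4) in 4 h PT against 1754 ± 343 (SD, n = 3) with a pistil, 0.89 ± 0.19 (SE, adjusted p = 0.00222), under the 3-fold limit. The 2 genes to either side of each of the 7 made 28 neighbours, of which 15 had a named probe set, and 0 of the 15 were called in either direction, where 4.79% of all probe sets were. Most of the 15 had mean signals of about 256 or less in dry pollen, 4 h PT and SIV PT, so the count says little about a fall in them. Their differences ran from -1.42 for AT3G16020 (adjusted p = 0.00123 in limma) to 1.59 for AT3G16010 (adjusted p = 0.00583), both beside CES101.

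The families of CES101 and AT4G35710 held no call in SIV PT against 4 h PT. Of 26 other S-domain receptor kinases 0 were called, 5 had an unadjusted p below 0.05, and differences ran from -0.74 to 1.02, the highest being SD1-29. A mean log2 signal of 8 was reached by 1 of the 26 in SIV PT. Of 12 other DUF241 genes 0 reached a mean log2 signal of 8 in any condition. Of these 12, 0 were called and 1 had an unadjusted p below 0.05. That gene, AT4G35690, lies near AT4G35710 and had a signal of 72.1 ± 76.4 (SD, n = 4) in 4 h PT that became 256 ± 102 (SD, n = 3) after a pistil (1.38, adjusted p = 0.0304).

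**Figure D4:**
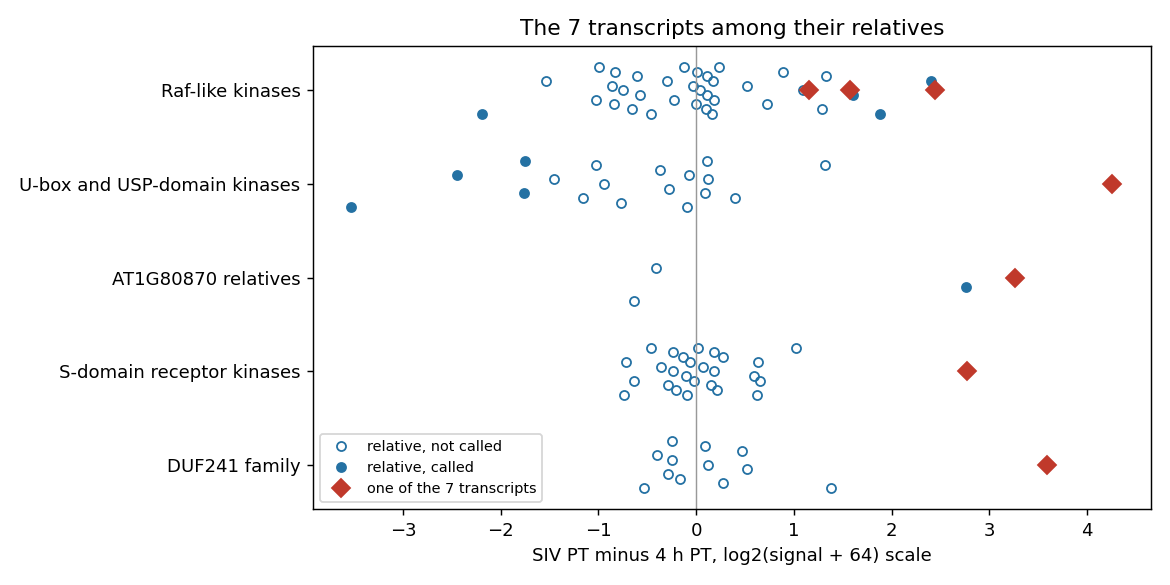
Difference between SIV PT and 4 h PT (log2(signal + 64) scale, x axis) for every named relative (circles, filled where called) and for the 7 transcripts (diamonds), by family (rows, with points spread vertically for legibility). AT1G72760 at 4.26 lies above the range of its family, -3.53 to 1.32, and AT1G80870, CES101 and AT4G35710 also lie above theirs. The 3 Raf-like transcripts lie within or just past theirs, -2.19 to 2.40. This contrast chose the 7, so nothing is read from their place beyond relatives that were not so chosen.

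Other genes of the carbon dioxide pathway of HT1 were thinly covered. Of 10 listed genes 4 were measured, and 0 of the 4 reached a mean log2 signal of 8 in any condition. AT3G01490, which encodes a kinase that acts with HT1 in guard cells, had the largest difference at -0.99 (adjusted p = 0.0313), and 0 were called, 1 having an unadjusted p below 0.05. Of 10 measured receptor kinases known from pollen tubes 1 was called higher and 3 lower. AT4G08850, a leucine-rich repeat receptor kinase, went from 24.5 ± 25.6 (SD, n = 4) to 207 ± 38.8 (SD, n = 3), 1.64 ± 0.22 (SE, adjusted p = 3.6e-05), a call lost without 4 h PT replicate 2, SIV PT replicate 1 or SIV PT replicate 2. AT1G72460 went from 4724 ± 1125 (SD, n = 4) to 335 ± 63.1 (SD, n = 3), -3.56 ± 0.20 (SE, adjusted p = 9.78e-09). PRK2A and AT2G21480 fell by 2.60 (adjusted p = 1.22e-08) and 1.63 (adjusted p = 5.31e-06). The call for AT2G21480 was lost under median centring, quantile normalization and with only the 2 conditions compared, and without 4 h PT replicate 2 or 3 or SIV PT replicate 2.

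The genes most like each transcript were sought among 4474 probe sets with 1 named gene and a mean log2 signal of at least 8 in some condition. Likeness was Pearson r over 15 arrays, and it follows mostly the step between SIV PT and the rest. HT1 was most like AT1G03010 (r = 0.993), ARP1 (0.991), which encodes an RNA-binding protein, and AT4G17950 (0.987), and AT4G17950 was also among the closest to AT1G80870 (0.983). The others near AT1G80870 were CCP3 (0.990) and CRK18 (0.987), a cysteine-rich receptor-like kinase whose signal was 20.2 in 4 h PT and 544 ± 132 (SD, n = 3) in SIV PT. AT1G72760 was most like XF1 (0.988), which encodes squalene epoxidase of the sterol pathway, AT3G60770 (0.987), and AT4G25210 (0.987). CES101 was most like TET4 (0.957), a tetraspanin gene, AT4G15830 (0.946) and PFA-DSP1 (0.941). AT4G35710 was most like AT3G57890 (0.969), AT4G00755 (0.969) and AT3G48070 (0.965). The weakest matches were those of AT3G46920, with AT3G02840 (0.927), BUB3.2 (0.917) and AT3G55890 (0.902), and of AT3G06620, with AT5G25360 (0.896), MED8 (0.895) and AT1G23070 (0.890).

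SIV PT differed from the other conditions in array controls as well. The ratio of the 3′ to the 5′ control probe set was 6.59 to 9.72 for GAPDH in SIV PT against 1.25 to 2.88 on the other 12 arrays, and 1.71 to 2.08 against 0.0414 to 0.794 for actin, while for ubiquitin the ranges overlapped. The part of RNA integrity and of RNA input in the 7 rises was not tested. Markers of female tissue were thinly covered. Of 13 pistil markers 5 were measured, with a summed signal of 136 to 408 on the SIV PT arrays and 187 to 554 on the other 12, and 0 of 5 reached a mean log2 signal of 8 in any condition. Of 8 green tissue markers 2 were measured, at 118 to 354 in SIV PT against 82.5 to 252 elsewhere. Of 6 guard cell markers 2 were measured, at 65.6 to 139 against 56.2 to 229. None of these 4 markers reached a mean log2 signal of 8 in any condition. The sperm cell list had 1 of 8 markers measured, MGH3, with a signal from 5988 to 8157 on the SIV PT arrays against 7935 to 10286 on the rest. The vegetative cell list had 1 of 9 so named, AGL18, at 4050 to 6425 against 16281 to 27475. A further 3 were named only through lists of changed genes. From 4 h PT to SIV PT the mean signal of HA6 went from 1492 to 10449 (2.77, adjusted p = 7.81e-08, called higher), that of CPK34 from 14603 to 19311 (0.39, not called) and that of CNGC18 from 3978 to 3424 (-0.19, not called). In bulk samples fewer cells and less RNA per cell cannot be told apart.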

How the data were processed

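The authors deposited 1 intensity (signal) per probe set for 15 ATH1 arrays, produced with GCOS per the labels, version not given there. Each array had a 2% trimmed mean of about 500.1. Probe-level data were not used here, so the study's RMA step was not repeated. The 64 control probe sets were left out, 64 was added to each signal, and log2 values were fitted with limma 3.58.1 (R 4.3.3), 1 mean per condition, eBayes on 11 residual degrees of freedom, Benjamini-Hochberg over 22746 probe sets. Calls needed B above 3 and 3-fold. On simulated arrays the fit was checked to find seeded changes.

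Of the probe sets, 13268 were named by the platform table, 1009 by supplementary tables in array order and 933 by lists of changed genes. The last name genes because they changed, so they served only for CES101, HT1, neighbours, the closest genes and 3 vegetative cell markers, and not for counts over relatives. The 7 transcripts, the lists and the subgroups were chosen with earlier results of these data known. Named relatives were up to 4 called with the largest difference per list, or the largest where none was called. The number of columns from other series was 0. Precision rests on the number of arrays. No sequences or coordinates were used here.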

Additional observations from a re-analysis of the deposited data

Results flagged for a closer look

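Of 21 groups of 4 arrays tested (7 transcripts in 3 conditions), 1 held an array far from the rest by Dixon's criterion, and chance gives about 1 in 20. AT1G72760 stood at 77.5 in 4 h PT replicate 3, against 223 to 252 on the other 3 arrays, a gap of 0.835 of the whole range. Without that array the difference between SIV PT and 4 h PT for AT1G72760 was 3.98, against 4.26 with it. No test of a difference in effect between groups was made for the 7 transcripts.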

How the results depend on the processing

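The difference between SIV PT and 4 h PT stayed above 0 for all 7 transcripts under each of 24 alternatives, or 23 for the median, where the adjusted p limit changes no value. Their median difference, 2.77, was 3.62 at an offset of 16, added to the signal in place of 64, and 1.83 at an offset of 200, and 2.56 to 3.16 when 1 array was left out. A lower offset widens the fitted differences of low signals by construction. At an offset of 16 AT4G35710 and CES101 no longer passed the limits, nor did HT1 at 200, nor CES101 with only the 2 conditions compared. In 0.5 h PT against dry pollen 0 of the 7 were called in any alternative, leaving out 1 array included (0 to 0). Over all related lists together, 13 probe sets were called in SIV PT against 4 h PT (11 to 13 without 1 array). Quantile normalization gave 9, and a fit of only the 2 conditions compared gave 6, 0 higher and 6 lower. An offset of 16 or of 200 gave 3 higher and 8 lower. Over all probe sets the calls were 1090 for SIV PT against 4 h PT (877 to 1174 without 1 array), 1571 for SIV PT against dry pollen (1345 to 1585), 174 for 4 h PT against dry pollen (147 to 189) and 14 for 0.5 h PT against dry pollen (10 to 18). With only the 2 conditions compared 91 probe sets were called for 4 h PT against dry pollen and 9 for 0.5 h PT against dry pollen, the latter also at an offset of 200. That fit has fewer arrays from which to estimate the spread. The arrays share replicate numbers, but same-numbered arrays did not deviate together (r from -0.02 to 0.041 over 21 pairs), so the numbers do not pair them. With the replicate number as a block, 1056, 1516, 164 and 15 probe sets were called. In that fit 0 of the 7 were called in 0.5 h PT against dry pollen. Of the related lists 12 probe sets were called, and the median of the 7 was 2.76.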
